A study of Rattus norvegicus with 12 samples.

Results

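Complement is a cascade of secreted proteases and their substrates that tags cells and debris, recruits leukocytes and, at its end, opens membrane pores. In the classical pathway the protease C1r activates C1s, C1s cleaves C4 and C2, and the resulting convertase cleaves C3. The alternative pathway amplifies C3 cleavage through factor B, while C1 inhibitor and membrane proteins such as Cd55 hold the cascade in check. Much circulating complement comes from the liver, but fibroblasts and macrophages also transcribe components locally, and several of these genes are known to respond to interferons.

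The 9 genes described here are the complement components and regulators C1r, C1s, Serping1, C4a, C4b, C2, C3, Cfb and Cd55, found by symbol among the 12271 genes of the normalized count table. All 9 passed the filter of a mean of at least 10 normalized counts, as did 11871 genes in all. RNA was sequenced from primary cardiac fibroblasts of 2-day-old Sprague Dawley rats (ventricles of P2 neonates, with no genotype labelled). Cultures received small interfering RNA (siRNA), which lowers the messenger RNA it matches. Cells were collected 48 h after transfection by the labels, whereas the study's methods count that interval from a later change of medium. The 4 groups of 3 libraries received universal negative control siRNA (negative siRNA), siRNAs against Yap, the transcriptional coactivator encoded by Yap1 (Yap siRNA), siRNAs against its paralog Wwtr1, also called Taz (Wwtr1 siRNA), or both (Yap+Wwtr1 siRNA, the double knockdown). Each siRNA was used at 25 nM, and the total amount per group is not given in the sources used here. Replicates came from separate litters according to the study's methods. For the double knockdown, the label that lists siRNAs gives those against Wwtr1 alone, and the series design text speaks of myocytes where the labels say fibroblasts.

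The targeted genes followed the group names. Yap1 read 3042, 3776 and 2984 normalized counts (counts divided by 1 size factor per library) in the negative siRNA libraries, 532, 576 and 625 after Yap knockdown, 3169, 3151 and 3184 after Wwtr1 knockdown and 713, 739 and 1474 after both. For Wwtr1 the negative siRNA libraries held 2364, 2565 and 2280.03 normalized counts, those of Yap siRNA 2134, 2499.54 and 2374, those of Wwtr1 siRNA 524, 550.04 and 637 and those of the double knockdown 818, 731 and 1056. Both targets were therefore lower in the double knockdown libraries than with negative siRNA, but less so than in the single knockdown of each. Ratios of means to negative siRNA were 0.299 against 0.177 for Yap1 and 0.361 against 0.237 for Wwtr1. In the double knockdown both targets were highest in replicate 3. Library totals were 33.9 to 41.1 M in units of the smallest step of each library, with double knockdown replicates 2 and 3 the largest. Fibroblast markers were abundant in every library (Col1a1 at 1380000 normalized counts or more). Macrophage markers (11 genes, summed 8121 to 51770) and cardiomyocyte markers (8 genes, summed 41220 to 89470) were also present, so in these bulk cultures fewer cells of a type and less RNA per cell cannot be told apart.

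Double knockdown against negative siRNA asked what the loss of both coactivators did to complement transcripts. All 8 components and secreted regulators rose, from 4.11-fold for C1r to 37.9-fold for C4b in group means, and the membrane regulator Cd55 fell to a ratio of 0.684. Without double knockdown replicate 3 the ratios of the 8 ran from 3.14 for C2 to 17.03 for C4b, and 4 of them were lower by more than 1.5 times, at 17.03 for C4b in place of 37.9, 12.6 for Cfb in place of 29.7, 9.23 for C4a in place of 17.8 and 3.605 for C3 in place of 6.34. Among all genes tested, 17.1% were called higher and 15.6% lower in the same comparison (limma on log2 values, Benjamini-Hochberg adjusted p under 0.05, two-sided). The 9 genes had a median log2 fold change of 3.55, against 0.0035 over all genes.

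**Figure D1:**
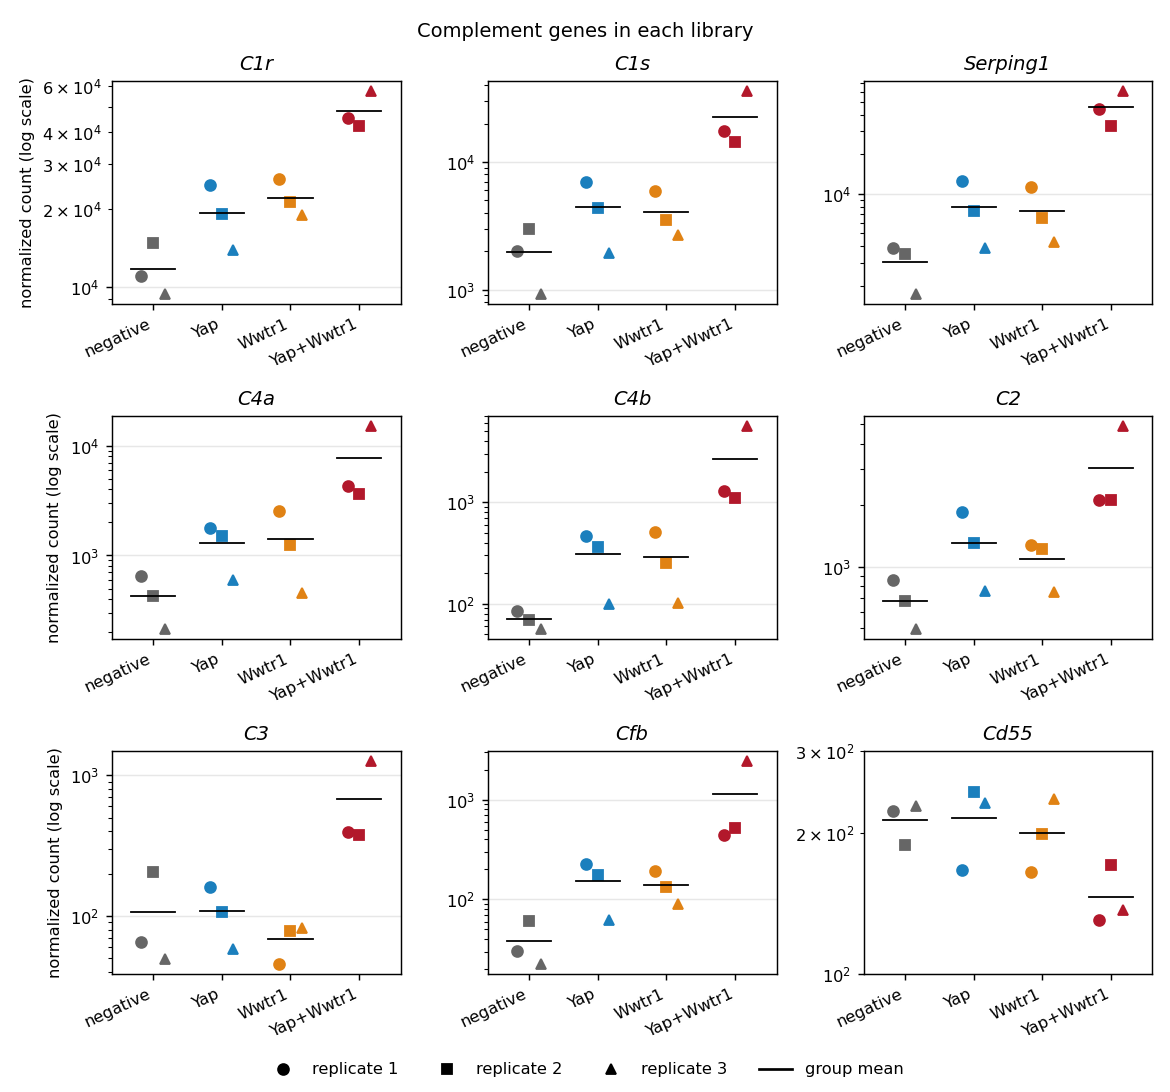
Normalized counts (log axis, a separate scale for each gene) of the 9 complement genes in the 12 libraries, with symbols for replicate numbers and a line for the group mean. In the 8 panels other than Cd55, the 3 double knockdown libraries lie above all other libraries, and replicate 3, the triangle, is the highest of them.

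C1r and C1s encode the serine proteases of the C1 complex. C1r read 11048, 14739 and 9402 normalized counts in the negative siRNA libraries, 24879.9, 19085 and 13943 after Yap knockdown, 26076, 21371 and 19055 after Wwtr1 knockdown and 45304, 41927 and 57328 after both. Every double knockdown library was above every other library, and the Wwtr1 siRNA libraries also cleared the negative ones. In the double knockdown C1r rose by a log2 fold change of 2.05 (SE 0.22, adjusted p = 4.89e-05, limma).

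For C1s the negative siRNA libraries held 1996, 2991 and 926 normalized counts, those of Yap siRNA 6959.7, 4351 and 1919.9, those of Wwtr1 siRNA 5899, 3526 and 2702 and those of the double knockdown 17438, 14275 and 36014. Here too the double knockdown libraries stood clear of the rest, while each single knockdown overlapped with negative siRNA. The log2 fold change in the double knockdown was 3.55 (SE 0.53, adjusted p = 0.000408, limma). C1r and C1s are neighbouring protein-coding genes in the RefSeq annotation of assembly GRCr8.

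The RefSeq sequence upstream of C1r is shown because it was the 1 promoter, of the 5 members found in the promoter table (C1r, C3, Cd55, C4a and C4b), to hold GGAATG, the letters of the core motif of the TEAD factors, through which Yap and Wwtr1 act on DNA. It covers the 250 bases before the gene's start at chr4:159098763-159099012 (GRCr8, plus strand), whereas the deposited values were made on rn6. Capitals mark the 3 matches, all to the minus strand of the motif, at positions -173 to -168, -69 to -64 and -57 to -52 from the start.
C1r: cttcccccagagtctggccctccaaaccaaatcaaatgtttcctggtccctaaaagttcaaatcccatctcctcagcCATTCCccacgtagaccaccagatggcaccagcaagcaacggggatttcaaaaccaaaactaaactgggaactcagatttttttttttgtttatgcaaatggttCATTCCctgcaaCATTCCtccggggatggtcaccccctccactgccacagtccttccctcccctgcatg
On either strand, GGAATG occurs in 14.2% of the 33469 promoter windows of the table, each with 250 bases before and 50 after the start. A core of the interferon regulatory factor motif, AANNGAAA, occurs in 26.4% and the STAT motif TTCNNNGAA in 8.87%, and neither was in the windows of the 5 members. These are letter matches only. Promoters of C1s, C2, Cfb and Serping1 were not analysed here.

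Serping1 encodes C1 inhibitor, the secreted serpin that blocks C1r and C1s. It read 3842, 3503 and 1734 in the negative siRNA libraries, 12514, 7382 and 3859.7 after Yap knockdown, 11302, 6571 and 4296 after Wwtr1 knockdown and 44451, 32789 and 60571 after both. Libraries of each single knockdown were above all negative ones, narrowly so for Yap replicate 3, and those of the double knockdown were far above both. The rise in the double knockdown was 15.2-fold in group means, a log2 fold change of 3.96 (SE 0.45, adjusted p = 8.02e-05, limma). The protease pair and its inhibitor therefore rose in the same libraries.

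C4a and C4b are the rat's C4 gene copies, named here as genes and not as the cleavage products of the C4 protein. For C4a the negative siRNA libraries held 649.6, 429 and 215 normalized counts, those of Yap siRNA 1763, 1504 and 594, those of Wwtr1 siRNA 2556, 1251 and 458 and those of the double knockdown 4288, 3668 and 15109. The single knockdown libraries ran from inside the negative range to well above it, and double knockdown replicate 3 stood apart from the other two. C4a rose by a log2 fold change of 3.98 (SE 0.69, adjusted p = 0.00112, limma).

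C4b read 84.1, 69.97 and 56.8 in the negative siRNA libraries, 461, 365 and 101 after Yap knockdown, 504, 252 and 102 after Wwtr1 knockdown and 1298, 1097 and 5607 after both. No library with an siRNA against Yap or Wwtr1 fell within the negative range. The log2 fold change in the double knockdown was 4.83 (SE 0.71, adjusted p = 0.00041, limma), the highest value of the 9.

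The upstream sequences of the C4 genes are shown because both moved together and the copies are alike, so that reads may have been split between them. They lie at chr20:4010107-4010356 for C4a and chr20:4201729-4201978 for C4b (RefSeq, GRCr8, plus strand, 250 bases before the start). Capitals mark bases that differ in an alignment of the 300-base windows, where 276 of 295 aligned bases were identical (93.6%).
C4a: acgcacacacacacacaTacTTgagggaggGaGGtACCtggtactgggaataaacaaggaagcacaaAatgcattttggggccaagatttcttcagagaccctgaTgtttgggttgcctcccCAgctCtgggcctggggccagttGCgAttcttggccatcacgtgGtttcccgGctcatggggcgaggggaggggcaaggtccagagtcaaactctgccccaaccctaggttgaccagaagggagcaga
C4b: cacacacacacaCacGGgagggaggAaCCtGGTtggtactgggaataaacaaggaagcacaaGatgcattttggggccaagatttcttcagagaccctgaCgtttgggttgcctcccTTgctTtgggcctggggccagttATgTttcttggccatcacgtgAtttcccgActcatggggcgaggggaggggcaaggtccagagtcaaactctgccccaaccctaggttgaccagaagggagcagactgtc
These windows lie mostly before the start, so they cannot show whether reads were split, which was not tested. The 2 genes may therefore be uncertain one by one. Summed into 1 gene they gave a log2 fold change of 4.14 in the double knockdown (adjusted p = 0.000876, limma), 1.62 with Yap siRNA (adjusted p = 0.220) and 1.56 with Wwtr1 siRNA (adjusted p = 0.194).

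C2 encodes the protease part of the classical C3 convertase. Its values were 855, 679 and 495 in the negative siRNA libraries, 1841, 1300.11 and 763 in the Yap siRNA libraries, 1282, 1220.5 and 748 in the Wwtr1 ones and 2132, 2115 and 4889 in the double knockdown libraries. The lowest library of each single knockdown lay within the negative range, and the double knockdown libraries lay above all others. C2 rose by a log2 fold change of 2.09 in the double knockdown (SE 0.38, adjusted p = 0.00148, limma).

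Cfb, factor B, is the protease part of the alternative pathway convertase and the neighbour of C2 in GRCr8. It read 30.8, 60.97 and 22.7 in the negative siRNA libraries, 225, 177 and 61.8 after Yap knockdown, 193, 134 and 89.4 after Wwtr1 knockdown and 441, 518 and 2445 after both. Single knockdown libraries were all above the negative ones, with Yap replicate 3 only just so, and the double knockdown libraries were higher again. The double knockdown value was a log2 fold change of 4.52 (SE 0.65, adjusted p = 0.000346, limma).

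C3, on which all pathways converge, stayed within the spread of negative siRNA in the single knockdowns or just below it. Its values were 65.7, 206 and 49.6 in the negative siRNA libraries, 161, 106 and 58.7 in the Yap siRNA libraries, 45.9, 78.6 and 82.3 in the Wwtr1 ones and 395, 377 and 1264 in the double knockdown libraries. The first 3 groups overlapped throughout, with negative replicate 2 above every single knockdown library, and the double knockdown libraries were above them all. C3 rose by a log2 fold change of 2.69 in the double knockdown (SE 0.58, adjusted p = 0.00434, limma).

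Cd55, decay-accelerating factor, is a membrane protein that takes C3 convertases apart. It read 223, 189 and 228 in the negative siRNA libraries, 167, 245 and 233 after Yap knockdown, 165, 199 and 237 after Wwtr1 knockdown and 130.3, 171 and 137 after both. The double knockdown libraries were below the negative ones but overlapped with both single knockdowns. Cd55 fell by 0.55 on the log2 scale (SE 0.20, adjusted p = 0.0495, limma), and it passed the threshold in 11 of 21 alternative fits, with adjusted p from 0.0357 to 0.143. Without double knockdown replicate 3 its adjusted p was 0.0974.

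Groups that did not overlap were common in this comparison. The 8 rising genes lay wholly above negative siRNA, as did 23.1% of all genes tested, and Cd55 lay wholly below it, as did 21.5%.

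**Figure D2:**
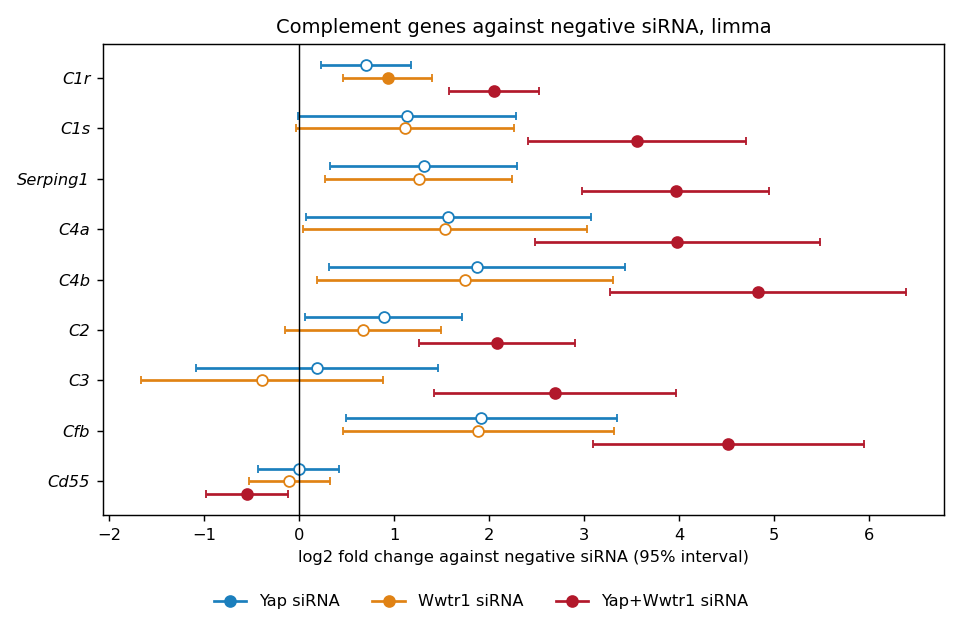
Log2 fold change of each of the 9 complement genes against negative siRNA with its 95% interval from limma, for Yap siRNA, Wwtr1 siRNA and the double knockdown, with filled points for adjusted p under 0.05. All 9 double knockdown points are filled, C1r is the only filled point of Wwtr1 siRNA, and none is filled for Yap siRNA.

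The single knockdowns against negative siRNA asked what the loss of either coactivator alone did. With Yap siRNA none of the 9 genes was called by limma, beside 3.02% of all genes called higher, and 6 had an unadjusted p under 0.05, as did 19.7% of all genes. Log2 fold changes of C1r, C1s, Serping1, C4a, C4b, C2 and Cfb ran from 0.70 for C1r to 1.92 for Cfb, C3 stood at 0.19 and Cd55 at -0.0042, and the median of the 9 was 1.13. Without negative replicate 3 that median was 0.68 with 2 genes at an unadjusted p under 0.05, without Yap replicate 1 it was 0.71 with 1 gene, and without Yap replicate 2 it was 1.05 with 3 genes. Without Yap replicate 3 it was 1.64 with 7 genes, and Serping1 and C1r were called, beside 4.57% of all genes. Without double knockdown replicate 3 Cfb was called, beside 6.44% of all genes. With Wwtr1 siRNA C1r was called, at a log2 fold change of 0.93 (SE 0.22, adjusted p = 0.0194), beside 5.0% of all genes called higher. The other values with Wwtr1 siRNA ran from -0.39 for C3 to 1.89 for Cfb, the median was 1.11, and 5 genes including C1r had an unadjusted p under 0.05, as did 23.9% of all genes. That count was 1 without negative replicate 3 or without Wwtr1 replicate 1, and 3 without Wwtr1 replicate 2. It was 7 without Wwtr1 replicate 3 or without double knockdown replicate 3. C1r lost its call (adjusted p up to 0.0848) when any of negative replicate 1, negative replicate 3, Wwtr1 replicate 1 or Wwtr1 replicate 2 was left out. Serping1, C4b and Cfb did not overlap with negative siRNA in either single knockdown, nor did C1r with Wwtr1 siRNA, where 13.5% (Yap) and 16.6% (Wwtr1) of all genes lay wholly above it.

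In part, libraries with the same replicate number lay on the same side of their groups. Negative replicate 3 was the lowest of its group for 8 of the 9 genes, Yap replicate 3 for 8 and Wwtr1 replicate 3 for 7, while Yap replicate 1 was the highest for 8 and Wwtr1 replicate 1 for 7. In the negative group replicates 1 and 2 were each the highest for 4 genes. Deviations from group means over the 9 genes had correlations of -0.232 to 0.74 between same-numbered libraries of these 3 groups. C1r, C1s, Serping1, C4a, C4b, C2 and Cfb were higher than in the same-numbered negative library in 3 of 3 pairs with either siRNA. For Serping1 the differences were 1.70, 1.08 and 1.15 on the log2 scale with Yap siRNA and 1.56, 0.91 and 1.31 with Wwtr1 siRNA. C3 was higher in 2 of 3 pairs with Yap siRNA and in 1 of 3 with Wwtr1 siRNA.

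With the replicate number as a block, fitted over the 9 libraries of the negative and single knockdown groups, 7 of the 9 genes were called higher with Yap siRNA and 7 with Wwtr1 siRNA, where 8.92% and 11.0% of all genes were called higher. They were C1r, C1s, Serping1, C4a, C4b, C2 and Cfb in both. Serping1 then had a log2 fold change of 1.31 with Yap siRNA (SE 0.12, adjusted p = 7.85e-05, limma) and 1.26 with Wwtr1 siRNA (adjusted p = 6.11e-05). C3 and Cd55 were called in neither. The same block over all 12 libraries called 0 of the 9 genes with Yap siRNA and 2 with Wwtr1 siRNA (C1r and Serping1), where 7.36% and 11.1% of all genes were called in either direction. The 16 interferon-induced genes described further on were all called higher with either siRNA in the 9-library block fit, and their part in these levels was not tested.

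**Figure D3:**
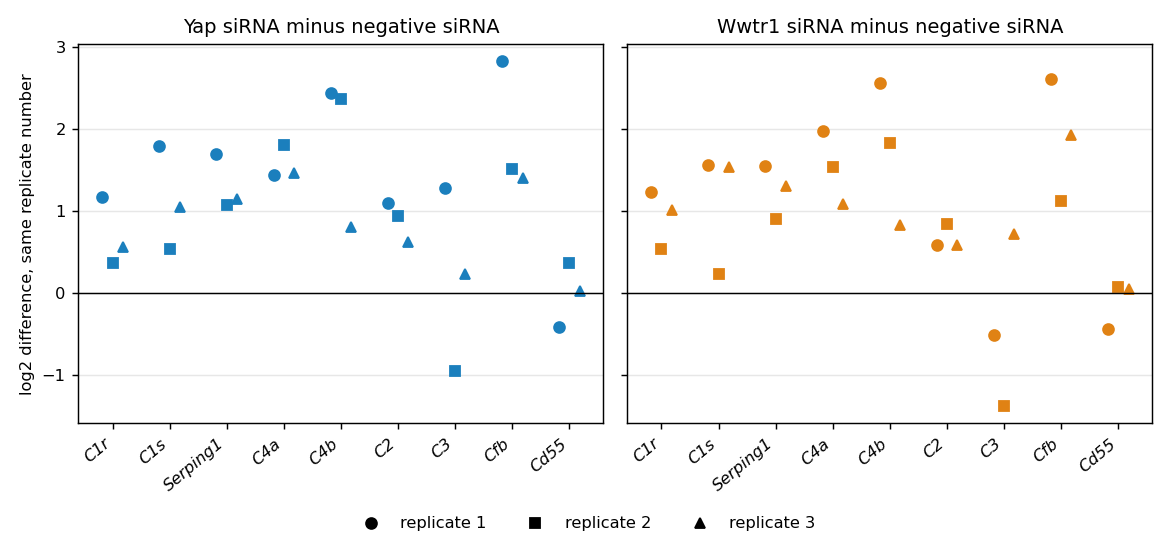
Log2 difference of each single knockdown library from the negative siRNA library with the same replicate number, for the 9 complement genes, with symbols for the replicate number. All 3 points lie above 0 for 7 genes in both panels, and those of C3 and Cd55 fall on both sides.

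Yap siRNA against Wwtr1 siRNA asked whether the coactivators differed in their effect on these genes. None of the 9 was called by limma, none had an unadjusted p under 0.05 (24.4% of all genes did), and 8.79% of all genes were called in either direction. None of the 9 had groups that did not overlap, where 15.8% of all genes lay wholly higher and 16.0% wholly lower with Yap siRNA. The median difference was 0.053 on the log2 scale. The intervals were wide for most genes. C1r had a log2 difference (Yap minus Wwtr1 siRNA) of -0.23 (95% interval -0.70 to 0.24), and C3 differed by 0.58 (95% interval -0.70 to 1.85).

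Comparing the double knockdown with each single knockdown asked what the second siRNA added, though the first target was less lowered in the double knockdown. Against Yap siRNA 7 of the 9 genes were called higher, beside 6.83% of all genes, namely C1r, C1s, Serping1, C4a, C4b, C3 and Cfb. Their log2 differences ran from 1.35 for C1r (adjusted p = 0.0023) to 2.95 for C4b (adjusted p = 0.019, limma). C2, at 1.20 (adjusted p = 0.0552), and Cd55, at -0.55 (adjusted p = 0.0868), were not called. Against Wwtr1 siRNA 8 genes were called higher, all but Cd55, beside 9.75% of all genes. Here the differences ran from 1.12 for C1r (adjusted p = 0.0043) to 3.08 for C4b (adjusted p = 0.0112, limma), with C3 also at 3.08 (adjusted p = 0.00399). The 8 genes other than Cd55 lay wholly above both single knockdowns, as did 16.2% of all genes against Yap siRNA and 18.9% against Wwtr1 siRNA. Counts of calls rested on single libraries. C4a was called against Yap siRNA in 14 of 22 alternative fits (adjusted p up to 0.150). It missed the threshold with no trend, with the compared groups alone, and without negative replicate 2, Wwtr1 replicate 2, Yap replicate 2 or 3, or double knockdown replicate 1 or 3. Against Wwtr1 siRNA it was called in 17 of 22 and C2 in 19 of 21. Without Yap replicate 3, 2 genes were called against Yap siRNA (C1r and Serping1), and without Wwtr1 replicate 3, 4 were called against Wwtr1 siRNA (C1r, C1s, Serping1 and C3). With the compared groups fitted alone, 4 were called against Yap siRNA. Calls over all genes, in either direction, fell in the same fits. Against Yap siRNA they were 1637 in the main fit, 758 without Yap replicate 3 and 774 with the compared groups alone. Against Wwtr1 siRNA they were 2359 in the main fit and 1288 without Wwtr1 replicate 3.

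The interaction, which is what remained of the log2 change in the double knockdown once both single knockdown changes were subtracted, was called for none of the 9 genes by limma, where 1.03% of all genes were called. An unadjusted p under 0.05 was found for 1 of the 9 and for 14.0% of all genes. The count was 4 without Yap replicate 1, 3 without negative replicate 3, 2 without Wwtr1 replicate 1 or double knockdown replicate 2, 2 with the replicate block over all 12 libraries, with TMM scaling, with a pseudocount of 10 or with no filter, and 1 otherwise. The 1 gene was C3, with an interaction of 2.89 (SE 0.83, 95% interval 1.09 to 4.70, adjusted p = 0.122) and with neither single knockdown value beyond its error. Serping1 had 1.39 (95% interval -0.0022 to 2.79, adjusted p = 0.359) and C1r 0.42 (95% interval -0.25 to 1.08, adjusted p = 0.604). The 8 rising genes had interactions above 0 and Cd55 one below 0 (-0.44). Departures from additivity of 2-fold or more were within the interval for each of the 9 genes.

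Within the double knockdown the replicates ordered otherwise than in the other groups. Replicate 3 was the highest library for 8 of the 9 genes and replicate 2 the lowest for 7. C4a in replicate 3 was 4.12 times the lowest library of the group, C4b 5.11 times and Cfb 5.55 times, but C1r only 1.37 times and Serping1 1.85 times. Replicate 3 also had the highest macrophage marker sum of the series, 51770, against 8121 and 15940 in replicates 1 and 2 and 24540 to 35650 with negative siRNA. The macrophage marker sums of double knockdown replicates 1 and 2 were below those of every negative library. The part of macrophages in the complement levels of any group was not tested. All 11 macrophage markers measured were above 0 in every library except Cx3cr1, listed at 0 in 1 library, and Cd163 was not among the genes analysed here.

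Without double knockdown replicate 3, the 8 rising genes were still called against negative siRNA, with log2 fold changes of 1.92 for C1r, 3.16 for C1s, 3.74 for Serping1, 3.34 for C4a, 4.08 for C4b, 1.68 for C2, 2.12 for C3 and 3.73 for Cfb (limma adjusted p from 0.000131 for C1r to 0.0119 for C3). C4a then fell short against Yap siRNA (adjusted p = 0.0886), and C4a and C2 did against Wwtr1 siRNA (adjusted p = 0.0764 and 0.0575).

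**Figure D4:**
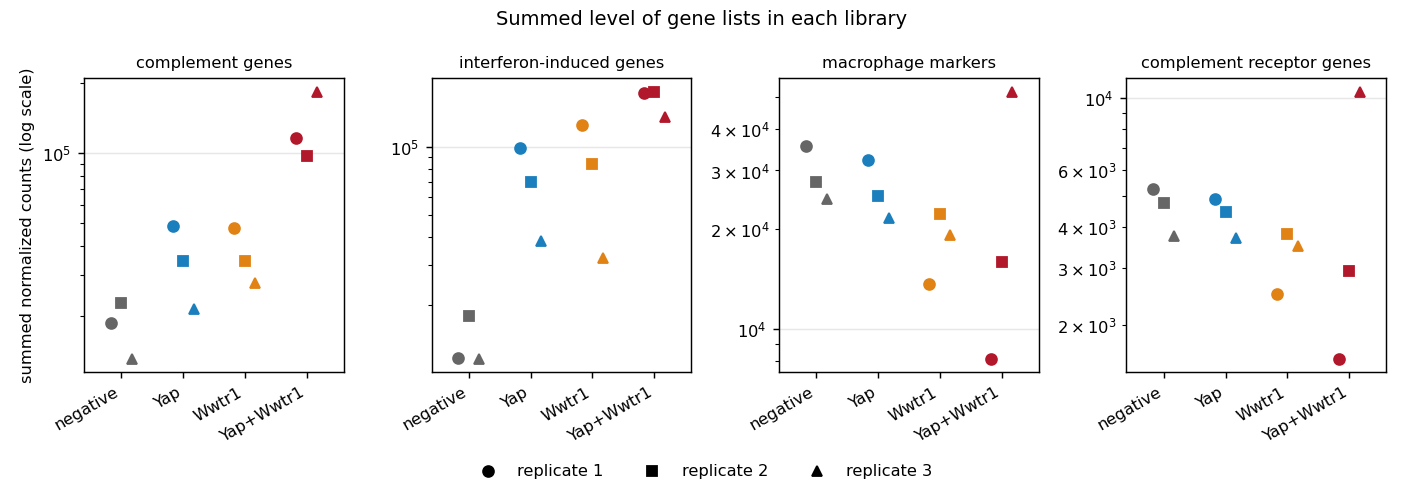
Summed normalized counts (log axes) of the 9 complement genes, 16 interferon-induced genes, 11 macrophage markers and 6 complement receptor genes in each library. Double knockdown replicate 3 is highest for the complement, macrophage and receptor sums and lowest of its group for the interferon sum.

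Interferon-induced genes, which include Irf7, Isg15, Mx1 and Oas2, are set beside the complement genes because both lists moved in the same libraries. Of 16 such genes, 15 were called higher after Yap knockdown, 14 after Wwtr1 knockdown and 16 after both, with median log2 fold changes of 4.15, 4.18 and 5.76. Between the double knockdown and the single knockdowns, 2 of the 16 were called against Yap siRNA (Gbp2 and Irf1, with 11 at an unadjusted p under 0.05) and 2 against Wwtr1 siRNA (Cxcl10 and Irf1, with 8 at an unadjusted p under 0.05). For the complement genes the corresponding counts called higher were 0, 1 and 8 of 9 against negative siRNA (3.02%, 5.0% and 17.1% of all genes) and 7 and 8 against the single knockdowns (6.83% and 9.75% of all genes). With the replicate block over the 9 libraries without the double knockdown, all 16 interferon-induced genes and 7 of the 9 complement genes were called higher with either siRNA. Of all genes 8.92% (Yap) and 11.0% (Wwtr1) were called higher in that fit. The block over all 12 libraries called 0 and 2 of the 9, where 7.36% and 11.1% of all genes were called in either direction. The summed interferon level was 98630, 69920 and 38520 in Yap siRNA replicates 1 to 3 and 124200, 84120 and 32230 in those of Wwtr1 siRNA, which is also the order of C1r, C1s, Serping1, C4a, C4b, C2 and Cfb in the same libraries. In the double knockdown it was 172000, 174300 and 134600, lowest in replicate 3, where the complement sum was highest. The part of the interferon response in the complement levels was not tested.

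Of 46 other complement genes listed by role, 24 were in the table and tested. None was called against negative siRNA in the single knockdowns, where limma gave 3 with Yap and 4 with Wwtr1 siRNA an unadjusted p under 0.05, beside 19.7% and 23.9% of all genes. With the replicate block over the same 9 libraries, Clu and C5ar2 were called higher and C1qb and C1qc lower with Yap siRNA, where 7.12% of all genes were called lower. With Wwtr1 siRNA the block fit called Susd4 higher and 8 lower, among them C1qa, C1qb, C1qc, Cfp, Cr1l, Itgam and Itgb2, where 10.3% of all genes were called lower. In the same fit 7 of the 11 macrophage markers were called lower with Wwtr1 siRNA (Cx3cr1, Fcer1g, Lyz2, Ptprc, Csf1r, Mrc1 and Tyrobp) and 1 with Yap siRNA (Cx3cr1), and their part in the lower values was not tested. In the double knockdown 4 of the 24 were called higher, a share near the 17.1% of all genes, none lower and 20 not at all, with a median log2 fold change of -0.31. Colec12, a membrane collectin, read 2162, 1862 and 1314 with negative siRNA and 3433, 3006 and 4660.4 in the double knockdown, a log2 fold change of 1.06 (SE 0.19, adjusted p = 0.0013). Cd59, which blocks the membrane pore, read 1038, 996 and 698 against 1372, 1592 and 1908, a log2 fold change of 0.84 (SE 0.20, adjusted p = 0.00678). C6, a component of that pore, read 15, 18 and 3 against 184, 107 and 863, a log2 fold change of 4.57 (SE 1.24, adjusted p = 0.0148), and it was called in 19 of 21 alternative fits. The fourth was Susd4, a membrane regulator with a mean under 100 normalized counts.

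The recognition genes C1qa, C1qb and C1qc, which macrophages transcribe, were low and high in the same double knockdown libraries as the macrophage markers. C1qb read 1277, 898 and 1052 with negative siRNA, and 97, 227 and 1504 in the double knockdown, so that replicates 1 and 2 were far below the negative range and replicate 3 above it. The 6 receptor genes tested, C3ar1, C5ar1, C5ar2, Itgam, Itgb2 and Cd93, were called in none of the comparisons with negative siRNA outside the block fits.

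Markers of the cell types in the cultures were tested in the double knockdown against negative siRNA as well. Of 10 fibroblast markers, Dcn, Lum, Pdgfra and Postn were called higher and Col1a2, Tcf21 and Vim lower. Of 8 endothelial markers 4 were called higher (summed 1140 to 1489 with negative siRNA and 1702 to 2542 in the double knockdown). Of 8 cardiomyocyte markers 2 were called higher, of 5 mesothelial markers 1 higher and 1 lower, and of 11 macrophage markers Cx3cr1 lower. In the same comparison 17.1% of all genes were called higher and 15.6% lower. The defining fibroblast genes Col1a1 and Pdgfra were above 0 in every library. So were 7 of the 8 endothelial markers, Pecam1 and Cdh5 among them, while Emcn was listed at 0 in 7 libraries. In the 9-library block fit, 5 of 10 fibroblast markers were higher and 1 lower with Yap siRNA, and 3 higher and 4 lower with Wwtr1 siRNA. Of 8 cardiomyocyte markers 2 were higher with Yap siRNA, and 4 higher and 1 lower with Wwtr1 siRNA. Tek and Upk1b were higher with either. Of all genes 8.92% (Yap) and 11.0% (Wwtr1) were higher, and 7.12% and 10.3% lower. The part of any of these cell types in the complement levels was not tested.

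**Figure D5:**
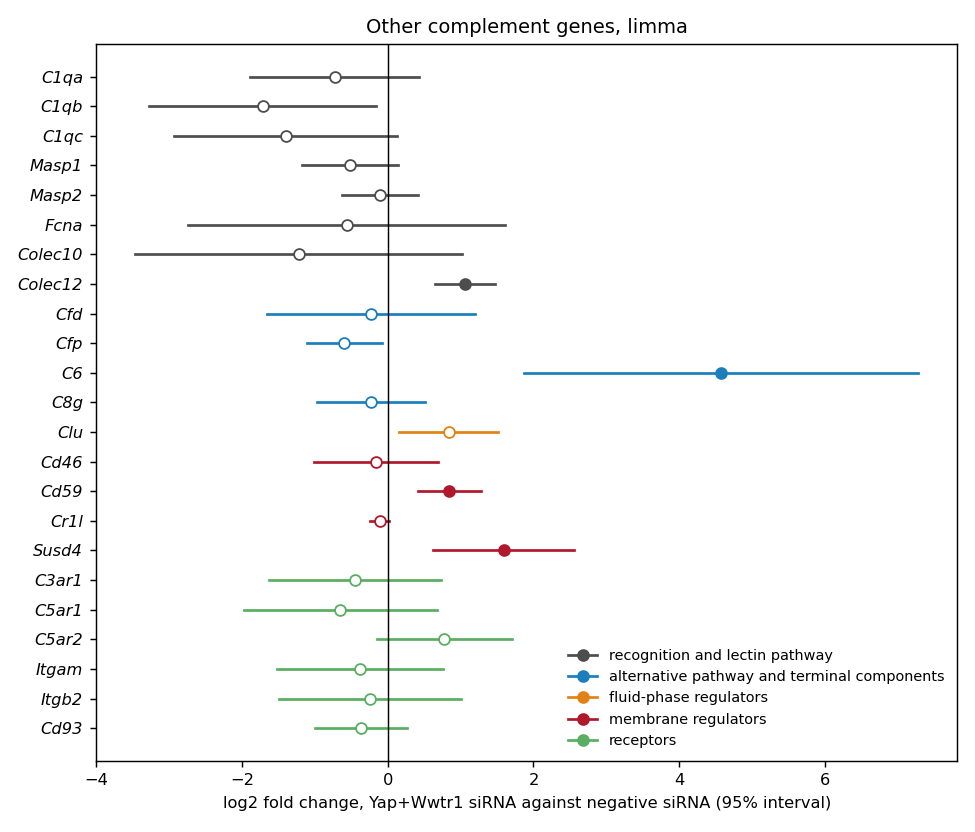
Log2 fold change of 23 of the 24 other complement genes in the double knockdown against negative siRNA, with 95% intervals from limma, coloured by role and filled where adjusted p was under 0.05. Colec12, C6, Cd59 and Susd4 are filled, and most of the recognition and receptor genes lie at or below 0.

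Across all 12 libraries the 8 rising genes were closely alike. Their 28 pairs had Pearson correlations of log2 values from 0.758 to 0.986 (median 0.962), and from 0.428 to 0.976 (median 0.861) after group means were taken off. The 8 pairs with Cd55 ran from -0.856 to -0.738, and from -0.779 to -0.357 (median -0.605) after group means were taken off. The libraries share the group differences and depth, so these are descriptions. The non-member genes most like each one over the 12 libraries, by the same measure, recurred among them. Mgst1, a microsomal glutathione transferase, was among the 2 most alike for C1s (0.987), Serping1 (0.992), C4a (0.983), C4b (0.982), C2 (0.973) and Cfb (0.964). Npy, neuropeptide Y, was most like Serping1 (0.997) and C1r (0.976) and second for C1s (0.985). Pdgfra, a fibroblast receptor, came second for C1r (0.974), Dcn second for C2 (0.971), Ass1 and Ccl7 were nearest to C3 (both 0.957), and Lnx1 led for Cfb (0.970). Nearest to Cd55 were P3h4 (0.920) and Plec (0.899).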

How the data were processed

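RNA-seq of 12 libraries in 4 siRNA groups of 3 was analysed, grouped by sample titles. The authors trimmed reads with Trim Galore 0.6.5, aligned them to rn6 with HISAT2 and estimated abundance with StringTie2. The authors deposited normalized counts from DESeq2, treated here as a signal because they are counts divided by a size factor. All values were whole multiples of 1 step per library to within 0.01 of a whole number, with totals of 33.9 to 41.1 M steps. In 5 libraries the smallest value listed was 2 steps, so the step was inferred there, and tests on counts were not run. The authors' own fold changes and p-values per comparison were not used, and every value column matched a sample.

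Here limma 3.58.1 (R 4.3.3, with trend) was fitted to log2(normalized count + 1) over 11871 genes with a mean of at least 10, all 12 libraries in 1 fit and no covariate. Adjusted p-values are Benjamini-Hochberg over all genes, two-sided, threshold 0.05. Fold changes on this scale understate those of low genes. Whether counting used the strand is not given in the sources used here, and levels were not compared between genes. Methods were tested on simulated data.

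Same-numbered libraries of the negative, Yap and Wwtr1 siRNA groups deviated together (correlations over all genes 0.104 to 0.276), so their numbers, from the titles, were taken to pair them. The methods name separate litters as replicates. Correlations of the double knockdown with these groups ran from -0.127 to 0.18, which overlaps with 0.104 to 0.276. With Wwtr1 siRNA they were 0.18, 0.0678 and 0.0878 for replicates 1 to 3. Whether the double knockdown was paired too is not settled by these values. The genes and lists were chosen with earlier results of these data known. Named genes were all members, both targets, other complement genes called against negative siRNA whose mean reached 100 normalized counts, and the 2 genes most alike in Pearson r. C1qb and Susd4 were named after their values were seen, as were the genes of the block fits and marker lists. Alternatives covered pseudocount, filter, scaling, trend, samples fitted, replicate block and leaving out each library. Summing C4a and C4b, and the ratios of means without double knockdown replicate 3, were added after seeing the data. Some genes of the lists are not reported here by name.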

Additional observations from a re-analysis of the deposited data

How the results depend on the processing

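The 8 rising complement genes kept their direction and their call against negative siRNA in the double knockdown under every alternative run (pseudocounts, filters, TMM and upper-quartile scaling, no trend, compared groups alone, replicate block, each library left out, C4a and C4b summed). The planned tests with edgeR and DESeq2 were not run. With the block over the 9 libraries without the double knockdown, 7 members were called with Yap siRNA and 7 with Wwtr1 siRNA. In that fit 8.92% and 11.0% of all genes were called higher. The main fit, with all 12 libraries and no block, called 0 and 1 members. The 9 libraries were not fitted without a block, so the block and the libraries left out cannot be told apart. A replicate block over all 12 libraries gave 0 with Yap siRNA and 2 with Wwtr1 siRNA (C1r and Serping1), as did the compared groups alone (Cfb and C1r), and the block over all 12 changed no other count of members called by over 1.5 times. Fitted alone, the compared groups gave 4 for the double knockdown against Yap siRNA. Leaving out each library gave 0 to 2 members with Yap siRNA, 0 to 2 with Wwtr1 siRNA, 2 to 9 for the double knockdown against Yap siRNA and 4 to 8 against Wwtr1 siRNA. These counts had 2 with Yap siRNA without Yap replicate 3, 1 without double knockdown replicate 3, and 9 against Yap siRNA without Yap replicate 1. Over all genes those fits called 543, 764 and 1338, where the main fit called 570, 570 and 1637. The cause of these shifts was not tested.

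Small uncalled values changed sign when a library was left out. C3 ran from -0.22 to 0.80 with Yap siRNA and from -0.79 to 0.22 with Wwtr1 siRNA, Cd55 from -0.11 to 0.17 and from -0.23 to 0.030, and the interaction of Cfb from -0.072 to 1.16, lowest without double knockdown replicate 3. Counts over all genes moved too. With Yap siRNA 570 genes were called, 294 without trend, 874 with the replicate block over all libraries and 1904 with the block without the double knockdown libraries, and 111 to 764 with a library left out. With Wwtr1 siRNA 1064 were called, 2527 with that block, and 548 to 1419 with a library left out. Between Yap and Wwtr1 siRNA 1044 were called, 2680 with that block and 434 to 1409 with a library left out, lowest without Wwtr1 replicate 2. The interaction gave 122, 60 without trend, 231 with the block over all libraries and 31 to 160 with a library left out, again lowest without Wwtr1 replicate 2. The double knockdown against Yap siRNA gave 1637, and 774 with the groups alone. With a library left out it gave 758 to 1873, lowest without Yap replicate 3. Against Wwtr1 siRNA the double knockdown gave 2359, and 1288 to 2340 with a library left out, lowest without Wwtr1 replicate 3. With 3 libraries a group, intervals for the single knockdowns and the interaction were wide.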
